A study of Mus musculus with 12 samples.

Results

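The BCL2 family of apoptosis regulators was examined through 10 genes, taken by symbol from a deposited count table of 32288 genes and transgenes in 12 libraries. They were 3 pro-survival genes (*Bcl2*, *Bcl2l1*, *Mcl1*), 2 effectors (*Bax*, *Bak1*) and 5 BH3-only genes (*Bcl2l11*, *Bbc3*, *Pmaip1*, *Bid*, *Bad*). Each symbol had 1 row, and all 10 genes passed the filter on low counts in every comparison. RNA-seq was made from mGFP+ osteoblasts sorted from the metaphysis, the growing end of long bones, of *Osx-CreERT2* mice with the *mTmG* reporter, in which tamoxifen switches membrane tdTomato to membrane GFP in *Osx*-expressing cells. Juvenile controls were 3 weeks old (4 libraries) and adult controls 8 weeks old (4 libraries). *c-Myc*-induced osteoblasts (2 libraries) came from mice that also carried *LSL-tTA* with *Col1a1::TetO–c-Myc*, and *c-Myc* + *R172H* osteoblasts (2 libraries) from mice that carried *Trp53-LSL-R172H*, a mutant p53 allele, on top of these.

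The groups differed in more than age and alleles. Control libraries each pooled 2 male mice, collected 2 days after tamoxifen at 100 mg/kg on 3 days, with the diaphysis trimmed 2 mm from the growth plate. Mice of both sexes were used for induction, with 1 mg of tamoxifen per mouse on 2 days, and cells were collected 7 days later at a trim of 5 mm. The induced mice are labelled 3 weeks old but described as 5 weeks old at dissection, and such mice received doxycycline or tetracycline in drinking water to hold the transgene off beforehand. In the comparisons of induced with juvenile osteoblasts, transgene, time, dose, antibiotic, age at dissection and trim cannot be told apart. Sex overlaps with them in part. *Xist*, read for sex, was at 0.0457 and 0.183 CPM in replicate 1 of the *c-Myc* and *c-Myc* + *R172H* groups and high only in replicate 2. The part of sex in the results was not tested. Induction acts in cells that express *Osx*, which is the promoter of the Cre, and the tTA-driven transgene sits in the *Col1a1* locus. How many mice made each induced library is not given in the sources used here, so p-values measure the spread between these libraries.

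BCL2 family proteins decide whether the outer mitochondrial membrane stays intact. Pro-survival members such as BCL2, BCL-XL (*Bcl2l1*) and MCL1 hold the pore-forming effectors BAX and BAK (*Bak1*) in check. BH3-only proteins relay stress: BIM (*Bcl2l11*), PUMA (*Bbc3*), NOXA (*Pmaip1*), BID and BAD bind the pro-survival proteins, and some of them also activate the effectors. *Bax*, *Bbc3* and *Pmaip1* are textbook targets of p53, MYC is known to sensitize cells to apoptosis, and MCL1 is a short-lived protein that NOXA binds.

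RefSeq promoter windows of GRCm38 (250 bases before to 50 bases after a start) were matched for 9 of the 10 genes, in 15 windows, and were searched for letters that MYC and p53 are known to bind. The sequences below are shown because *Bax* and *Bbc3* had the windows that held a match. *Bid*, the member that differed most between *c-Myc*-induced and juvenile osteoblasts, had no match. The MYC E-box CACGTG, which reads the same on both strands, was in 2 of the 15 windows and in 7.15% of all 32851 promoter windows. The single p53 decamer was searched by its published consensus, which also reads the same on both strands. It was in 1 of the 15 windows and in 8.36% of all. A pair of such decamers with no spacer was in 0 of the 15 windows and in 0.00913% of all. Matches are in capitals, and positions are counted from the first transcribed base as 0.
*Bax* E-box, positions -9 to -4, chr7:45466902-45466907, minus strand: cgatgatgatCACGTGactagtcctg
*Bax* p53 decamer, positions -201 to -192, chr7:45467090-45467099, minus strand: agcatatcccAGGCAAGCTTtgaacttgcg
*Bbc3* E-box, positions -64 to -59 of promoter 3 of 3, chr7:16310367-16310372, plus strand: ggggcgggcgCACGTGgcggcgtcga
*Bax* held a second CACGTG at positions 35 to 40, after the start. None of the other windows of the matched members held either motif. A match describes letters in a window and not a bound site, and the p53 decamer of *Bax* stood without a second one in its window.

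Total counts ranged from 9066154 to 15684412 per library, and *Col1a1*, *Col1a2* and *Gm26917* took between 35.2% and 65.3% of them. Levels are therefore given as CPM, counts scaled to a common depth by TMM over all 12 libraries, and a floor of 3 counts equals 0.137 to 0.417 CPM. The osteoblast label was met by *Sp7*, *Runx2* and *Col1a1* in every group, while haematopoietic, erythroid and endothelial lists summed to at most 14.3, 0.681 and 9.78 CPM. *Cd3e* and *S100a8* were at 0 in every group, and *Ptprc* at 0 in the juvenile libraries. *Myc* averaged 45.9 and 47.8 CPM in juvenile and adult osteoblasts and 641 and 693 CPM in *c-Myc* and *c-Myc* + *R172H* osteoblasts. A gene count cannot show the R172H change itself. *Xist* was at 234 and 212 CPM in replicate 2 of the *c-Myc* and *c-Myc* + *R172H* groups and at or below 1.24 CPM in the other libraries.

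Markers of other cells, of bone and of proliferation moved with the groups. The 8 osteoblast genes summed to 395580 to 573300 CPM in juvenile, 229240 to 412830 in adult, 67633 and 90167 in *c-Myc* and 36917 and 38810 CPM in *c-Myc* + *R172H* libraries. The 8 chondrocyte genes summed to 8350 to 24720 CPM in juvenile, 32703 to 118770 in adult, 339 to 529 in *c-Myc* and 159 to 161 CPM in *c-Myc* + *R172H* libraries, with none at 0. The 6 proliferation genes summed to 80.5 to 112 CPM, 82.7 to 147, 471 to 501 and 486 to 525 CPM in the same order. The 6 marrow stromal genes summed to 278 to 376, 354 to 614, 82.9 to 159 and 64.9 to 85.0 CPM, and the 5 osteoclast genes to 203 to 332, 221 to 411, 84.0 to 105 and 52.3 CPM, with *Calcr* at 0 in every group. The 8 haematopoietic genes summed to 1.19 to 2.50 CPM in juvenile, 7.19 to 14.3 in adult, 8.77 to 8.85 in *c-Myc* and 2.58 to 5.49 CPM in *c-Myc* + *R172H* libraries, and *Lyz2* was the gene of this list called in each comparison with juvenile osteoblasts, where it was lowest. The reporter rows moved too, with *tdTomato* averaging 4.07, 4.28, 33.7 and 31.0 CPM and *CreERT2* 63.8, 43.6, 34.8 and 26.4 CPM in the order juvenile, adult, *c-Myc* and *c-Myc* + *R172H*. The part of these markers in the results that follow was not tested.

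*Mcl1* carried most of the message of the 3 pro-survival members. Per kilobase of exon, its level was 24.7 ± 2.12 (SD, n = 4) in juvenile, 23.2 ± 0.457 (SD, n = 4) in adult, 33.0 ± 2.00 (SD, n = 2) in *c-Myc* and 36.4 ± 0.718 (SD, n = 2) in *c-Myc* + *R172H* libraries, in CPM per kb. This was 87.5 to 89.3% of the summed level of *Bcl2*, *Bcl2l1* and *Mcl1* in juvenile, 80.6 to 91.3% in adult, on average 94.9 ± 0.191% (SD, n = 2) in *c-Myc* and 95.3 ± 0.104% (SD, n = 2) in *c-Myc* + *R172H* libraries. These shares leave out *Bcl2l2*, a pro-survival gene outside the 10, which averaged 40.9 CPM in juvenile and 18.1 CPM in *c-Myc* libraries. In juvenile osteoblasts *Mcl1* was followed by *Bax* (10.5 ± 1.74 CPM per kb), *Bak1* (7.39 ± 1.16), *Bbc3* (4.77 ± 1.27), *Bad* (4.38 ± 0.249), *Pmaip1* (4.18 ± 0.494), *Bcl2l1* (2.25 ± 0.313), *Bcl2l11* (1.75 ± 0.337), *Bcl2* (0.933 ± 0.116) and *Bid* (0.378 ± 0.277), all SD with n = 4. *Bbc3*, *Bad* and *Pmaip1* lay within their spread of each other in this order. In *c-Myc* osteoblasts *Bax*, at 34.8 ± 2.34 CPM per kb (SD, n = 2), stood beside *Mcl1*, and *Bcl2* was lowest at 0.424 ± 0.127.

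**Figure D1:**
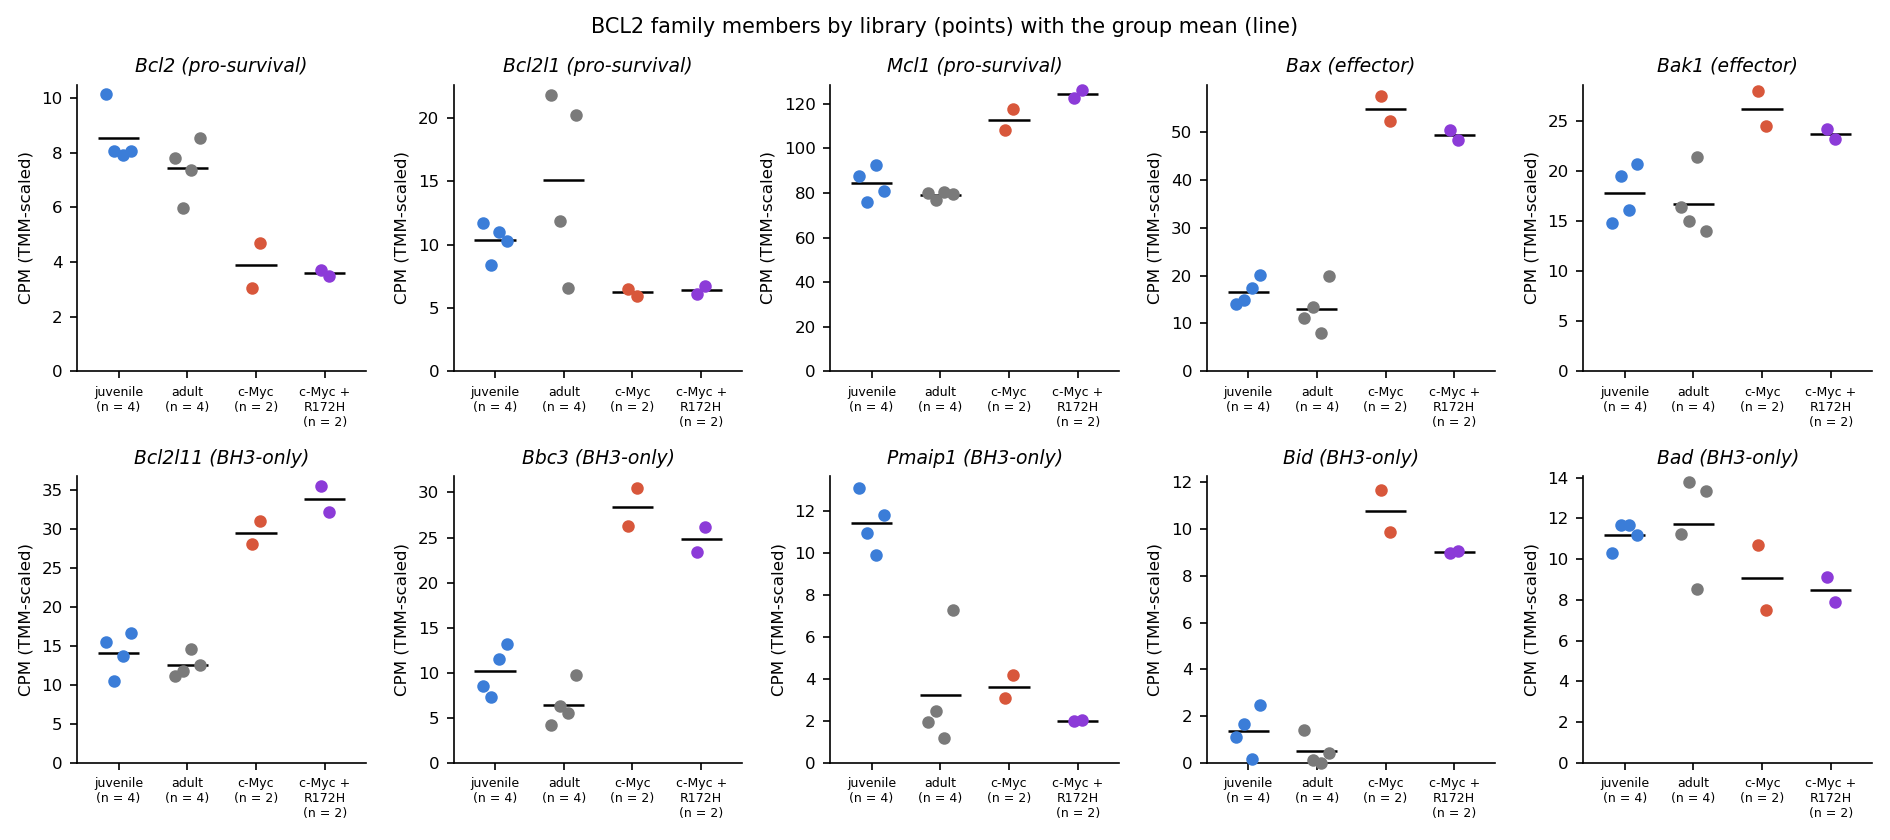
Each panel shows 1 gene, with 1 point per library in CPM on a linear axis from 0, and a line at the mean of each group (4 juvenile, 4 adult, 2 *c-Myc* and 2 *c-Myc* + *R172H* libraries). *Mcl1*, *Bax*, *Bak1*, *Bcl2l11*, *Bbc3* and *Bid* are higher in all 4 induced libraries than in any juvenile or adult library. *Bcl2* is lower in them, and *Pmaip1* is highest in the 4 juvenile libraries. Against juvenile libraries, 64.5% of all genes did not overlap in *c-Myc* and 66.7% in *c-Myc* + *R172H* libraries.

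The comparison of juvenile with adult osteoblasts asked how the family stands in growing bone. *Pmaip1* was the only member called, and it was higher in juvenile osteoblasts. Its level was 13.1, 10.9, 9.87 and 11.8 CPM in the juvenile libraries and 1.92, 2.48, 1.16 and 7.25 CPM in the adult libraries. The groups did not overlap, and adult replicate 4 stood closest to the juvenile range. The log2 fold change was 1.81 (SE 0.42, 95% interval 0.91 to 2.71, adjusted p = 0.0223 by edgeR's quasi-likelihood test with Benjamini-Hochberg adjustment), a 3.51-fold difference. In this comparison 5.12% of the 11345 genes tested were called (1.89% as higher and 3.23% as lower) and the groups of 12.9% did not overlap, so 1 of 10 members is near the background. In bulk libraries, fewer cells that express a gene and less RNA per cell cannot be told apart.

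The call for *Pmaip1* was narrow. Without juvenile replicate 1, 2 or 4 or adult replicate 1 the adjusted p was 0.0681, 0.0573, 0.0559 and 0.0574, with log2 fold changes of 1.74, 1.84, 1.80 and 1.62. Scaling by library totals gave 1.52 (adjusted p = 0.0599). Without adult replicate 4 the log2 fold change was 2.60 (adjusted p = 0.00156, edgeR). Immediate early genes, which respond to tissue handling, summed to 3244 to 4643 CPM in the juvenile libraries and to 4397, 1498, 2287 and 3557 CPM in adult replicates 1 to 4, and none of the 10 genes on that list was called by edgeR, with 2 at an unadjusted p under 0.05. The part of tissue handling in this result was not tested.

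The other BH3-only genes and the effectors were not called between ages. *Bbc3* was at 8.49, 7.33, 11.5 and 13.2 CPM in juvenile and 4.15, 6.32, 5.56 and 9.70 CPM in adult libraries, a difference of 0.64 on the log2 scale (SE 0.31, adjusted p = 0.260). The groups overlapped through adult replicate 4. *Bid*, which death receptor signalling cleaves into its active form, was near the floor, with 12, 16, 1 and 20 counts in juvenile and 14, 1, 0 and 4 counts in adult libraries, and its interval of -0.75 to 3.52 on the log2 scale left its direction undecided at this depth. *Bax* differed by 0.33 (95% interval -0.21 to 0.87), *Bak1* by 0.083 (-0.34 to 0.50), *Bcl2l11* by 0.16 (-0.29 to 0.62) and *Bad* by -0.075 (-0.55 to 0.40).

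Among the pro-survival genes, *Bcl2l1* was at 11.7, 8.36, 10.99 and 10.3 CPM in juvenile and 21.9, 11.9, 6.60 and 20.3 CPM in adult libraries. Adult replicates 1 and 4 were above every juvenile library and adult replicate 3 was below every one, and the difference was -0.57 on the log2 scale (SE 0.31, adjusted p = 0.336). Adult replicates 1 and 4 also had the highest chondrocyte sums, 118770 and 70272 CPM. Adult replicate 2 was at 32703 CPM, and adult replicate 3, with the lowest *Bcl2l1*, was higher at 52583 CPM. Juvenile sums were at most 24720 CPM. The part of chondrocytes in these values was not tested. *Mcl1* was nearly level, at 76.2 to 92.6 CPM in juvenile and 77.0 to 80.5 CPM in adult libraries, and its interval of -0.15 to 0.32 bounded the difference. *Bcl2* was at 7.93 to 10.1 CPM in juvenile and 5.98 to 8.53 CPM in adult libraries (log2 fold change 0.20, 95% interval -0.34 to 0.74).

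The comparison of *c-Myc*-induced with juvenile osteoblasts asked how the family differed between these groups, which differed in more than the transgene. Of the 10 members, 6 were higher, 3 were lower and *Bad* was not called, and the median of their log2 fold changes was 0.47 beside 0.037 over all 12588 genes tested. This comparison called 53.4% of all genes, 28.4% as higher and 25% as lower, so a count of 9 members has to be read against a background in which most genes were called. With a 2-fold difference (1 on the log2 scale) also required, 6 members were called against 34.4% of all genes.

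**Figure D2:**
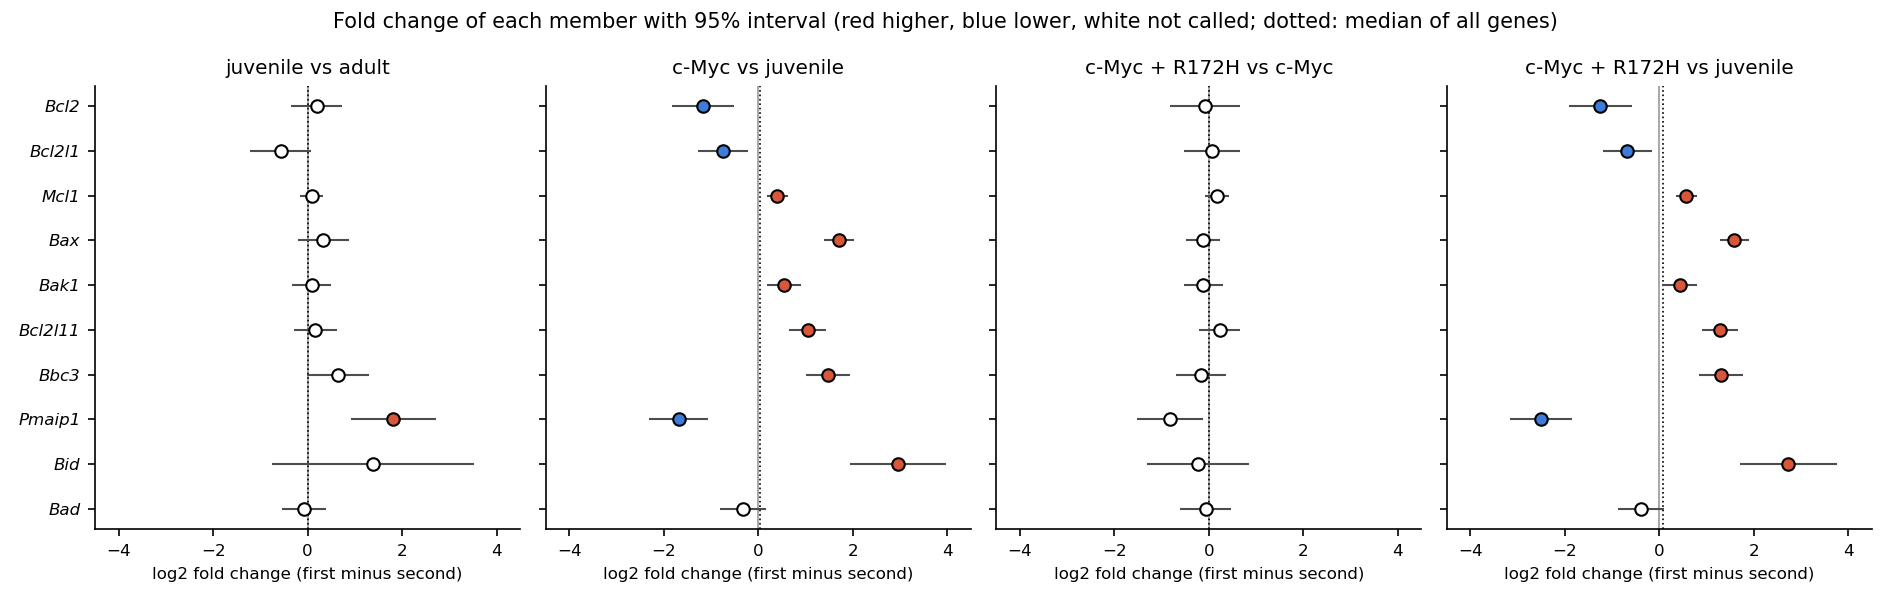
Points are log2 fold changes (first group minus second) from edgeR and bars their 95% intervals, with a panel for each of the 4 comparisons. Filled points passed an adjusted p of 0.05, and the dotted line is the median of all genes. *Pmaip1* is the only filled point between ages, 9 members are filled in each comparison of an induced group with juvenile osteoblasts, and no point is filled between the induced groups.

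Both effectors rose. *Bax* was at 14.1, 14.9, 17.4 and 20.1 CPM in juvenile and 57.5 and 52.3 CPM in *c-Myc* libraries. The groups did not overlap, which held for 64.5% of all genes in this comparison. The log2 fold change was 1.71 (SE 0.14, adjusted p = 8.66e-07), or 3.27-fold. *Bak1* was at 14.8, 19.5, 16.1 and 20.7 CPM and at 28.0 and 24.5 CPM, a smaller rise of 0.54 (SE 0.17, adjusted p = 0.0158). Without *c-Myc* replicate 1 or 2 the adjusted p of *Bak1* was 0.179 and 0.0521.

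Of the 5 BH3-only genes, *Bid*, *Bbc3* and *Bcl2l11* rose and *Pmaip1* fell. *Bid* had 256 and 174 counts, or 11.7 and 9.87 CPM, in the *c-Myc* libraries, against 1.10, 1.65, 0.139 and 2.48 CPM in the juvenile libraries, where juvenile replicate 3 held a single count. Its rise of 2.96 on the log2 scale (SE 0.47, adjusted p = 0.00019, 7.77-fold) was the largest of the members.

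*Bbc3* rose from 8.49, 7.33, 11.5 and 13.2 CPM in juvenile to 26.3 and 30.5 CPM in *c-Myc* libraries, a rise of 1.48 on the log2 scale (SE 0.21, adjusted p = 8.37e-05). *Bcl2l11* rose from 15.4, 10.4, 13.6 and 16.6 CPM to 28.0 and 31.0 CPM, a rise of 1.05 (SE 0.18, adjusted p = 0.000308). For both genes each *c-Myc* library was above each juvenile library.

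*Pmaip1* went the other way, to 3.06 and 4.20 CPM from 9.87 to 13.1 CPM in the juvenile libraries, and fell by 1.68 on the log2 scale (SE 0.29, adjusted p = 0.000304). The *c-Myc* values lay inside the adult range of 1.16 to 7.25 CPM, though *c-Myc* and adult libraries were not compared by a test. Immediate early genes were lower in the *c-Myc* libraries too, summing to 2353 and 2506 CPM, with 8 of the 10 called lower, and their part in this result was not tested. *Bad* was at 10.7 and 7.49 CPM against 10.3 to 11.7 CPM in juvenile libraries, with a log2 fold change of -0.32 (95% interval -0.81 to 0.16, adjusted p = 0.247).

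The pro-survival genes split. *Mcl1* rose from 87.6, 76.2, 92.6 and 81.0 CPM in juvenile to 108 and 118 CPM in *c-Myc* libraries, a rise of 0.40 on the log2 scale (SE 0.10, adjusted p = 0.00517). The rise was 1.32-fold, and without *c-Myc* replicate 2 the adjusted p was 0.0752.

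*Bcl2* fell from 10.1, 8.05, 7.93 and 8.07 CPM in juvenile to 3.06 and 4.71 CPM in *c-Myc* libraries, by 1.17 on the log2 scale (SE 0.30, adjusted p = 0.00613). Without *c-Myc* replicate 1, the lower library, the adjusted p was 0.118. *Bcl2l1* fell from 8.36 to 11.7 CPM in juvenile to 6.53 and 5.95 CPM in *c-Myc* libraries, by 0.75 (SE 0.24, adjusted p = 0.0209), and the adjusted p was 0.105 without *c-Myc* replicate 1 and 0.159 without replicate 2. The calls of *Bax*, *Bbc3*, *Bcl2l11*, *Bid* and *Pmaip1* held under each library left out.

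The falls of *Bcl2* and *Bcl2l1* and the rises of other members are relative to the other genes. *Col1a1*, *Col1a2* and *Gm26917* took 57.1 to 65.3% of the counts in juvenile libraries and 41.8 and 46.1% in *c-Myc* libraries. Under scaling by library totals the median gene moved from 0.037 to 0.87 on the log2 scale. *Bcl2* was then at -0.36 (adjusted p = 0.365) and *Bcl2l1* turned to 0.085, which is 1.23 and 0.79 below that median. *Pmaip1* remained lower at -0.86 (adjusted p = 0.0309, edgeR), while *Bad* turned to 0.52. The rises of *Mcl1* and *Bak1* became 1.23 and 1.38, which is 0.36 and 0.51 above that median. In *c-Myc* + *R172H* against juvenile osteoblasts the median moved from 0.076 to 1.12, *Bcl2* was at -0.21 (adjusted p = 0.577), and *Bcl2l1* and *Bad* turned to 0.37 and 0.66.

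**Figure D3:**
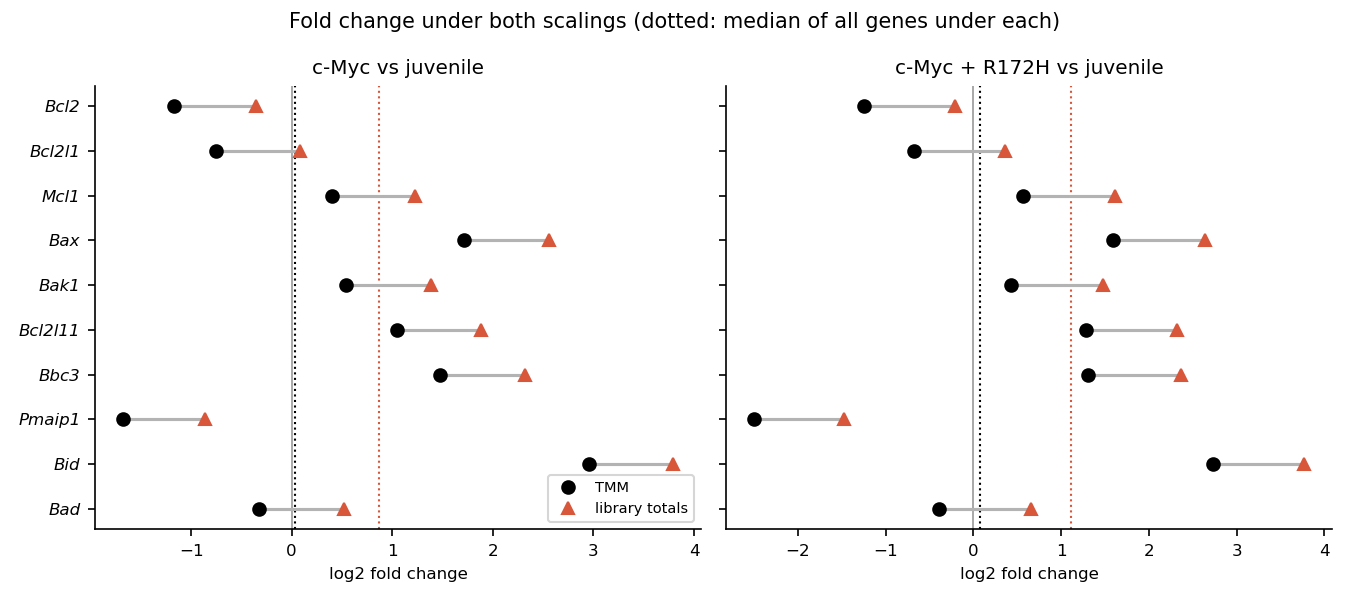
Log2 fold changes of the 10 members against juvenile osteoblasts under TMM scaling (black circles) and library totals (red triangles), with dotted lines at the median of all genes under each. All members shift upward with the median, *Bcl2l1* and *Bad* cross 0, and *Bcl2* and *Pmaip1* stay below 0 in both panels.

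The ratio of *Bax* to *Bcl2*, taken on levels per kb, was 8.06, 10.7, 12.7 and 14.5 in juvenile libraries, 8.30, 13.0, 6.22 and 13.6 in adult libraries, 109 and 64.5 in *c-Myc* libraries and 79.2 and 80.8 in *c-Myc* + *R172H* libraries. A ratio within a library does not depend on its scaling. The summed level of effectors and BH3-only genes over that of the pro-survival genes was 1.03 to 1.46 in juvenile, 0.783 to 1.14 in adult, 2.17 and 1.90 in *c-Myc*, and 1.71 and 1.63 in *c-Myc* + *R172H* libraries. Both ratios describe messages and not proteins, and the sums leave out family genes outside the 10. The pro-survival sum lacks *Bcl2l2*, which averaged 40.9 CPM in juvenile and 18.1 CPM in *c-Myc* libraries. The other sum lacks the BH3-only gene *Bmf* (20.6 and 7.51 CPM) and the effector relative *Bok* (5.20 and 25.9 CPM).

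**Figure D4:**
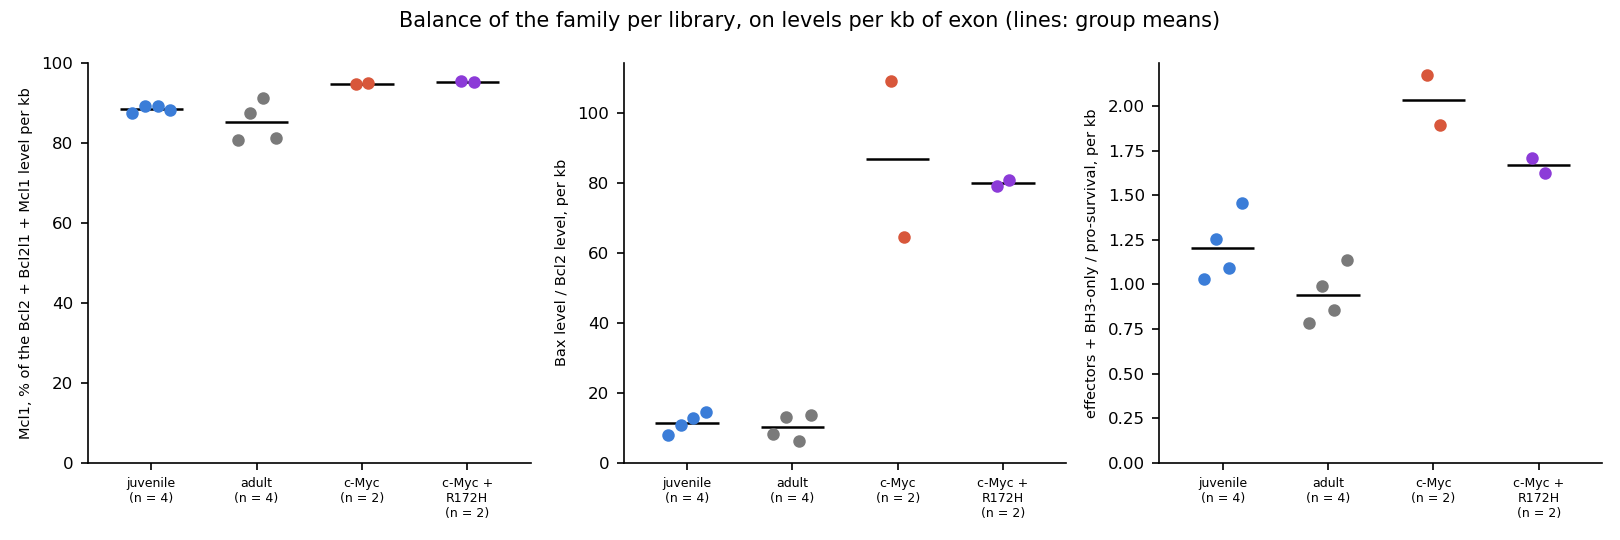
Points are libraries and lines group means, on levels per kb of exon. From left to right the panels show the share of *Mcl1* in the 3 pro-survival genes in percent, the ratio of *Bax* to *Bcl2*, and the ratio of effectors plus BH3-only genes to pro-survival genes. The ratio of *Bax* to *Bcl2* lies at or below 14.5 in the 8 control libraries and at or above 64.5 in the 4 induced libraries.

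The comparison of *c-Myc* + *R172H* with *c-Myc* osteoblasts asked how the family differed when the mutant p53 allele was carried on top of *c-Myc*. No member of the family was called by edgeR, and 1 member, *Pmaip1*, had an unadjusted p under 0.05. DESeq2 called 0 of the 5 members to which it gave an adjusted p. Of all genes 0.469% were called, 59 of 12588, with 0.00794% as higher and 0.461% as lower. With 2 libraries in each group, the intervals set what could be seen.

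*Pmaip1* was at 1.97 and 2.04 CPM in *c-Myc* + *R172H* and 3.06 and 4.20 CPM in *c-Myc* libraries. The groups did not overlap, as was so for 45% of all genes here, and the difference of -0.82 on the log2 scale (SE 0.32, 95% interval -1.53 to -0.12) had an unadjusted p of 0.0260 and an adjusted p of 0.791 in edgeR's test across all genes. For the p53 target *Bax*, at 50.5 and 48.3 CPM against 57.5 and 52.3 CPM, the log2 fold change was -0.12 (95% interval -0.47 to 0.23). *Bbc3*, at 23.4 and 26.2 CPM against 26.3 and 30.5 CPM, had a log2 fold change of -0.16 (95% interval -0.69 to 0.36). A decrease of *Bax* or *Bbc3* to beyond the lower ends of these intervals was thus outside what the fit allowed at 95%. *Cdkn1a*, which encodes the p53 target p21, was at 139 ± 3.41 CPM (SD, n = 2) against 194 ± 4.21 (SD, n = 2). Its log2 fold change was -0.45 (95% interval -0.70 to -0.20, unadjusted p = 0.00199, adjusted p = 0.171, edgeR). Against juvenile osteoblasts *Cdkn1a* was at 0.010 in *c-Myc* (adjusted p = 0.939, edgeR) and -0.44 in *c-Myc* + *R172H* osteoblasts (adjusted p = 0.00262, edgeR). Between ages it was higher in juvenile osteoblasts, by 0.49 (adjusted p = 0.0476, edgeR), which is close to the threshold. The groups overlapped, at 164 to 208 CPM in juvenile and 109 to 171 CPM in adult libraries.

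The remaining members lay within similar bounds. *Mcl1* was at 123 and 126 CPM against 108 and 118 CPM (log2 fold change 0.17, 95% interval -0.085 to 0.43). *Bcl2l11* was at 35.5 and 32.2 CPM against 28.0 and 31.0 CPM (0.23, -0.21 to 0.67). *Bid* was at 8.97 and 9.08 CPM against 11.7 and 9.87 CPM, with the widest interval, -1.30 to 0.85. *Bcl2*, *Bcl2l1*, *Bak1* and *Bad* had log2 fold changes between -0.11 and 0.074, and the sign of each except *Bak1* turned when 1 induced library was left out.

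Against juvenile osteoblasts, which are the same 4 libraries as above, the *c-Myc* + *R172H* group again had 6 members higher and 3 lower, with 56.7% of all genes called, 30.4% as higher and 26.3% as lower. The groups did not overlap for these 9 members and for *Bad*, nor for 66.7% of all genes. The values of both induced groups against these shared controls stand side by side here. *Bid* was 2.73 (adjusted p = 0.000329) beside 2.96 in *c-Myc* osteoblasts, *Bax* 1.59 (1.37e-06) beside 1.71, *Bbc3* 1.31 (0.0002) beside 1.48, *Bcl2l11* 1.28 (5.40e-05) beside 1.05 and *Mcl1* 0.57 (0.000386) beside 0.40. *Pmaip1* was -2.50 (1.70e-05) beside -1.68 and *Bcl2* -1.25 (0.0039) beside -1.17.

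*Bak1* and *Bcl2l1* sat at the threshold in *c-Myc* + *R172H* osteoblasts. *Bak1* was at 24.3 and 23.3 CPM, 0.43 above juvenile on the log2 scale (SE 0.17, adjusted p = 0.0458), and it kept its call in 7 of 18 alternatives. Its adjusted p was 0.0925 and 0.0647 without juvenile replicate 1 or 3, 0.101 and 0.1 without *c-Myc* replicate 1 or 2, and 0.258 and 0.198 without *c-Myc* + *R172H* replicate 1 or 2. *Bcl2l1* was at 6.13 and 6.75 CPM, at -0.67 on the log2 scale (SE 0.24, adjusted p = 0.0315), and it kept its call in 10 of 18. Its adjusted p was 0.059 without juvenile replicate 1, 0.0516 and 0.0511 without *c-Myc* replicate 1 or 2, and 0.198 and 0.115 without *c-Myc* + *R172H* replicate 1 or 2. *Bad*, at 9.11 and 7.89 CPM, was not called, at -0.39 (adjusted p = 0.156).

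The rest of the pathway was read from lists. The counts of the lists against juvenile osteoblasts have to be read against the 53.4% of all genes called in *c-Myc* and 56.7% in *c-Myc* + *R172H* osteoblasts, and no list was tested against other genes. Of 16 further family genes, 8 were tested against juvenile osteoblasts in each induced group. In *c-Myc* osteoblasts 2 were higher and 3 lower, beside 28.4% and 25% of all genes. *Bok*, an effector relative of *Bax*, rose from 5.20 to 25.9 CPM (log2 fold change 2.28, SE 0.21, adjusted p = 1.84e-06). *Bmf*, a BH3-only gene, fell from 20.6 to 7.51 CPM, by 1.47 on the log2 scale (adjusted p = 0.000107), and *Bcl2l2*, which encodes the pro-survival protein BCL-W, fell from 40.9 to 18.1 CPM, by 1.19 (adjusted p = 0.000558). In *c-Myc* + *R172H* osteoblasts *Bok* was at 2.49, *Bmf* at -1.53 and *Bcl2l2* at -1.04, all called, and *Becn1* was the other called gene, at 0.38.

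All 20 listed genes of the mitochondrial machinery downstream of the family were tested. In *c-Myc* osteoblasts 9 were higher and 4 lower, beside 28.4% and 25% of all genes, and the median of the list was 0.17 on the log2 scale beside 0.037 over all genes. *Birc5*, the mitotic inhibitor-of-apoptosis gene survivin, rose by 2.67 (adjusted p = 1.54e-06), *Cycs*, which encodes cytochrome c, by 2.47 (adjusted p = 3.50e-06), and *Htra2*, a mitochondrial protease, by 1.96 (adjusted p = 9.85e-06). The 4 lower genes were *Birc3*, *Birc2* and *Xiap*, which encode other inhibitors of apoptosis, at -1.61, -1.25 and -0.58, and *Casp6*, which encodes an executioner caspase, at -1.31 (adjusted p = 0.0294). *Apaf1*, which cytochrome c activates, was at 0.011 and not called. In *c-Myc* + *R172H* osteoblasts *Birc5*, *Cycs* and *Htra2* were at 2.52, 2.23 and 1.94, all called.

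Among 11 genes of the death receptor route, which feeds into the family through *Bid*, 9 were tested in *c-Myc* against juvenile osteoblasts, with 1 higher and 4 lower, beside 28.4% and 25% of all genes. *Tnfrsf10b*, the TRAIL receptor and a known p53 target, rose from 2.28 to 7.74 CPM (log2 fold change 1.71, SE 0.47, adjusted p = 0.00833). *Tnfrsf1b* and *Tnfrsf1a*, the TNF receptors, fell by 1.53 (adjusted p = 0.00322) and 0.88 (adjusted p = 0.000382). In *c-Myc* + *R172H* osteoblasts *Tnfrsf10b*, *Tnfrsf1b* and *Tnfrsf1a* were at 1.68, -2.28 and -1.09, all called. Of 4 genes that control MCL1 protein turnover, the ubiquitin ligase genes *Huwe1* and *Fbxw7* rose in *c-Myc* osteoblasts by 0.81 and 0.82, while *Btrc* and the deubiquitinase gene *Usp9x* fell by 0.61 and 0.25.

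**Figure D5:**
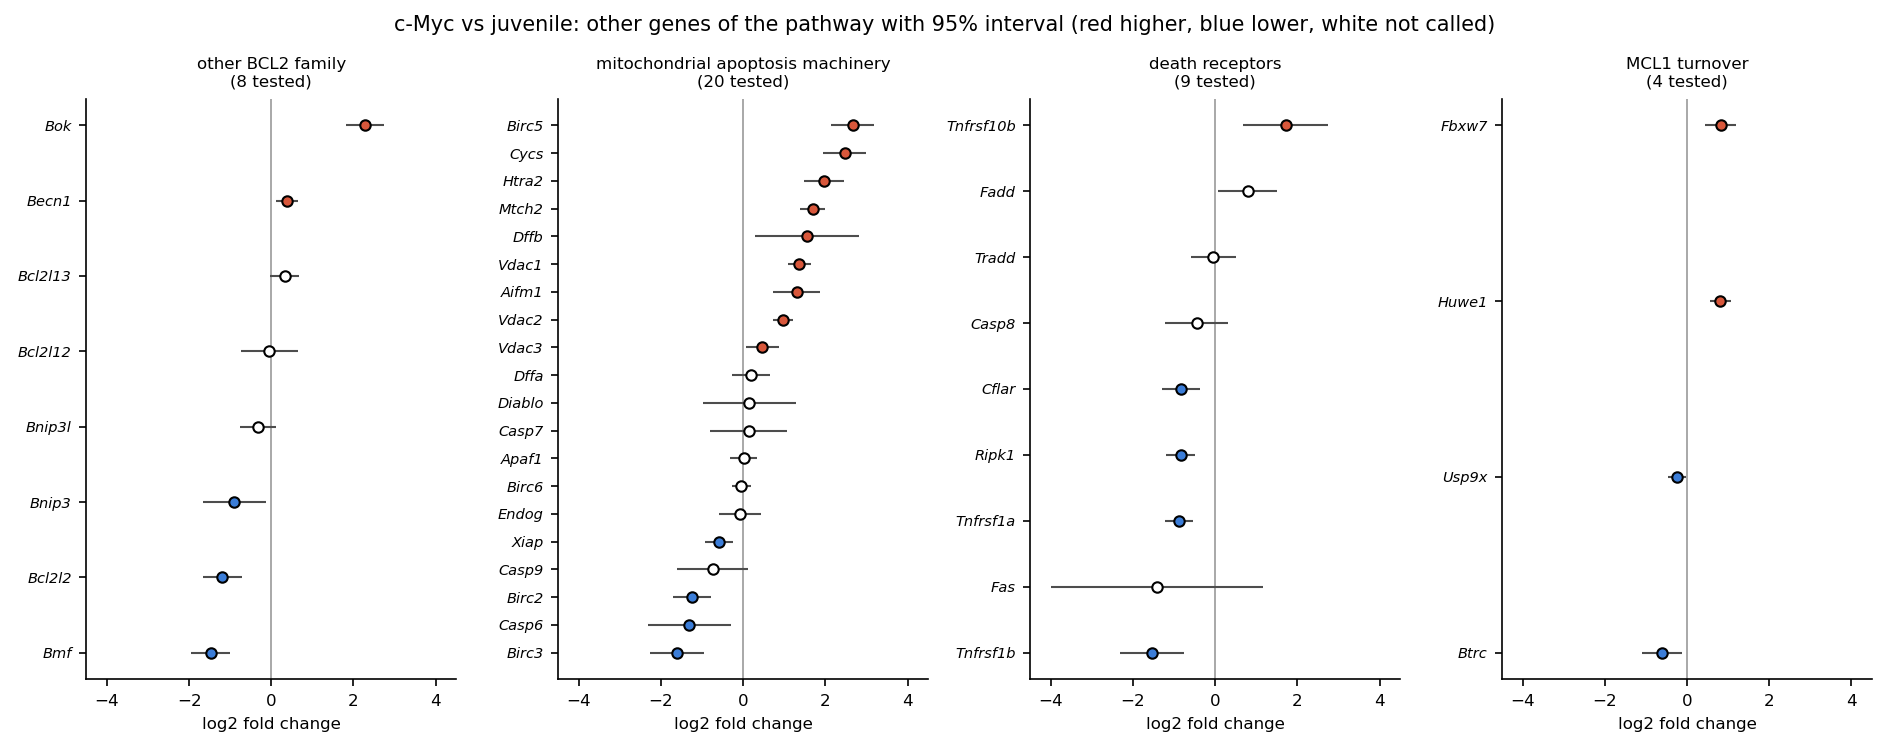
Log2 fold changes of *c-Myc* against juvenile osteoblasts with 95% intervals for the tested genes of 4 lists (8 further family genes, 20 genes of the mitochondrial machinery, 9 death receptor genes and 4 genes of MCL1 turnover). Red points are called higher and blue points lower. *Birc5*, *Cycs*, *Bok* and *Htra2* stand furthest to the right, and *Birc3*, *Tnfrsf1b* and *Bmf* are the furthest left of the called genes.

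Between ages, where 5.12% of all genes were called, 1 of 8 tested further family genes and 1 of 8 tested death receptor genes were called, with 4 and 2 at an unadjusted p under 0.05. *Bnip3*, a mitochondrial BH3-like gene, was lower in juvenile osteoblasts (5.01 against 16.8 CPM, log2 fold change -1.76, adjusted p = 0.0423), as was *Tnfrsf10b* (2.28 against 9.01 CPM, -1.97, adjusted p = 0.0173). The groups overlapped for *Bnip3* and did not for *Tnfrsf10b*, as was so for 12.9% of all genes. *Bmf* and *Bcl2l2* were at 0.79 and 0.57 (adjusted p = 0.0569 and 0.0820, edgeR), and *Bnip3l* at -0.59 (adjusted p = 0.0667, edgeR). None of the 20 machinery genes was called by edgeR, with 3 at an unadjusted p under 0.05. Between the induced groups none of these lists held a called gene.

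Genes most like the leading member of each role were found by Pearson's r of log2 CPM over the 12 libraries among 13004 genes, as a description. *Casc3* (r = 0.986), *Pdhx* (0.983) and *Gclc* (0.981) were closest to *Bax*, *Prpf39* (0.972), *Rnaseh2a* (0.971) and *Chd1* (0.971) to *Mcl1*, and *Sirt1* (0.971), *Fam81a* (0.969) and *Tspan33* (0.967) to *Bbc3*. The points share the step between induced and control libraries. Within the family, *Bax* and *Bbc3* had r = 0.964 and *Mcl1* and *Bcl2l11* r = 0.957, while *Pmaip1* was at -0.041 with *Bbc3* and -0.13 with *Bax*.

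On mm10, *Bcl2* lies at chr1:106538178-106714274, *Bcl2l1* at chr2:152780668-152831728, *Mcl1* at chr3:95658788-95663176, *Bax* at chr7:45461697-45466898, *Bak1* at chr17:27019810-27029009, *Bcl2l11* at chr2:128126038-128162547, *Bbc3* at chr7:16308393-16318205, *Pmaip1* at chr18:66458533-66465565, *Bid* at chr6:120891930-120916853 and *Bad* at chr19:6941861-6951899. All are protein-coding, and counts were taken over their exons. Since the strand setting of the counting is not given in the sources used here, reads in shared exons of opposite-strand genes are uncertain. *Bid* shares 628 exonic bases with *Bcl2l13*, which was at 18.3 to 39.7 CPM in control libraries and 38.0 to 46.5 CPM in induced libraries, and its log2 fold change in *c-Myc* against juvenile osteoblasts was 0.33 (not called). *Bad* shares 524 with *Gpr137* (3.82 to 11.4 CPM over all libraries), *Bak1* shares bases with *Ggnbp1* (at most 0.81 CPM), *Bcl2* shares 558 with *D630008O14Rik* (at 0 in every library), and *Bax* shares 192 with the same-strand predicted gene *Gm45808*.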

How the data were processed

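The authors made single-end libraries with a directional kit, used cutadapt 4.6 for trimming and STAR 2.7.11a for alignment to mm10, and deposited the raw counts of uniquely mapped reads that HTSeq 2.0.5 gave for each gene. Their methods name different annotation releases for alignment and counting. Libraries were grouped by their titles. Here, counts were tested in R 4.3.3 with edgeR 4.0.16 (TMM, filterByExpr, robust quasi-likelihood fit, Benjamini-Hochberg adjustment over all tested genes at 0.05). The age comparison used 8 libraries. The 3 comparisons with induced osteoblasts shared a fit of 8 juvenile and induced libraries. SE is approximated from the F statistic as the size of the log2 fold change over its root. Levels per kb used GENCODE exon lengths. The fitting was tested on simulated data. A gene of the machinery list is not reported here.

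The members and lists were chosen with earlier results of these data known. Named beyond the members were at most 3 called genes per list and comparison with the largest change, the 3 genes most like the leading member of each role, and label and marker genes. *Becn1*, *Birc3*, *Birc2*, *Xiap*, *Casp6*, *Apaf1*, and *Bnip3l*, *Bmf* and *Bcl2l2* between ages, were named after their values were seen. So were the MCL1 turnover genes and the overlapping genes. Correlations used a pseudocount of 0.5 CPM. No pair of replicates agreed within sampling noise. Alternatives were other scalings, filters, sets of libraries, DESeq2 1.42.0, a replicate block and each library left out. Floors cover counting error only, since reads carry no molecular identifiers.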

Additional observations from a re-analysis of the deposited data

Results flagged for a closer look

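*Bcl2* in juvenile replicate 1 stood at 10.1 CPM, apart from the other juvenile libraries at 7.93 to 8.07 CPM, by Dixon's test at 95%. It was the only such library among 20 groups of 4 tested (10 members in juvenile and adult osteoblasts), and chance flags about 1 in 20 groups.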

How the results depend on the processing

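The calls of *Bax*, *Bbc3*, *Bcl2l11*, *Bid* and *Pmaip1* in each induced group against juvenile osteoblasts held under every alternative that could test them. Where leaving out a library left a group with 1, that library was assumed to vary like the other groups. Library totals and a minimum of 10 counts in every library, which leaves *Pmaip1* untested, each gave 0 members called between ages, and leaving out a library gave 0 to 1. With library totals, log2 fold changes turned between ages for *Bcl2* (-0.046), *Mcl1* (-0.16), *Bak1* (-0.16) and *Bcl2l11* (-0.084), in *c-Myc* against juvenile for *Bcl2l1* (0.085) and *Bad* (0.52), in *c-Myc* + *R172H* against juvenile for *Bcl2l1* (0.37) and *Bad* (0.66), and between induced groups for *Bcl2* (0.14), *Bax* (0.086), *Bak1* (0.093), *Bbc3* (0.050) and *Bad* (0.13). Of these, only *Bad* in *c-Myc* + *R172H* against juvenile passed the test (adjusted p = 0.0314, edgeR). With a library left out, *Bad* ranged from -0.20 to 0.016 between ages (turned without adult replicate 2). Between induced groups *Bad* ranged from -0.33 to 0.18 (turned without *c-Myc* replicate 1), *Bcl2* from -0.39 to 0.23 (turned without *c-Myc* replicate 2) and *Bcl2l1* from -0.031 to 0.12 (turned to -0.016 without *c-Myc* replicate 2 and to -0.031 without *c-Myc* + *R172H* replicate 2). With the longest transcript as length, the *Mcl1* share averaged 82.6% in juvenile, 77.5% in adult, 91.7% in *c-Myc* and 92.4% in *c-Myc* + *R172H* libraries, with the last group's *Bax* to *Bcl2* ratio 90.0. The cause was not tested.

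Over all genes, the 581 called between ages became 977 without a filter, 940 with DESeq2, 1094 with all 12 libraries and 284 to 885 with a library left out. The 59 called between induced groups became 12 with library totals, 222 without a filter, 208 with DESeq2, 22 with all 12 libraries, 629 in a fit of these groups alone and 8 to 87 with a library left out. Library totals moved the share called higher from 36.8 to 6.26% between ages, 53.2 to 85.9% in *c-Myc* and 53.6 to 86.8% in *c-Myc* + *R172H* against juvenile osteoblasts.

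The labels give the replicate numbers no shared litter, batch or day. The numbers used are those of the titles, and the library names number the adult libraries differently. In their deviations from the group means, same-numbered juvenile and adult libraries correlated at -0.066 to 0.044. Same-numbered induced libraries correlated at 0.16. With 2 libraries in a group the deviations mirror each other, so the same-numbered induced pairs give a single value. Replicate 2 is the *Xist*-positive library in both induced groups, so the number goes with sex there. With the replicate block the members called stayed at 1, 9, 0 and 9, and all genes called became 434 between ages and 326 between induced groups. *Bid* in control libraries is limited by depth, with 0 to 20 counts.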
